A study of Mus musculus with 5 samples.

Results

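Genes of 7 adipocyte surface proteins were followed in single-nuclei RNA sequencing (snRNAseq) of mouse interscapular brown adipose tissue (iBAT). They were Slc36a2 and P2rx5, used as surface markers of brown and beige adipocytes, Slc7a10, used as a surface marker of white adipocytes, and Trhde, Cmklr1, Slc2a4 and Ffar4. They were taken by symbol, with no cutoff on a measured value but with earlier results of these data known. All 7 were found among the 32285 genes of both count matrices. One matrix, called the STX4 matrix here, holds nuclei of male mice of 3 months, either WT or Ucp1-STX4KO. Ucp1-STX4KO mice carry Ucp1-Cre+/- and STX4 fl/fl, so that deletion follows the Ucp1 promoter, which is active in brown adipocytes. WT mice were littermates with either Ucp1-Cre+/- or STX4 fl/fl alone. The aging matrix holds nuclei of male C57BL/6J mice of 2, 12 and 24 months. Every condition has 1 library, and the methods give 4 male mice without dividing them among libraries. Nuclei were released with a Dounce step tuned for brown adipocyte nuclei and were sorted before loading.

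Libraries are parted by the suffix of the barcode, and no label ties a suffix to a genotype or age. Values are therefore given for STX4 library 1 and 2 and for aging library 1, 2 and 3, named by suffix, and no genotype or age was compared. After lower limits of 200 UMIs (unique molecular identifiers, each standing for 1 captured RNA molecule) and 100 genes per nucleus, 7842 to 11201 nuclei per library remained, with median UMIs of 5998 and 3284 in the STX4 libraries and 1247 to 1720 in the aging libraries. The upper limits that the methods state, 2000 UMIs and 3000 genes, would leave 0 nuclei of STX4 library 1 and 2763 of STX4 library 2, so they were not applied. Any pair of libraries shared 23 to 45 barcode sequences, at most 0.450% of the smaller library. Stx4a, the targeted gene, had 60.2 and 51.5 CPM (UMIs per 1000000 UMIs) in adipocyte nuclei of the STX4 libraries and 47.7 to 64.1 CPM in those of the aging libraries; whether the counted ends of its transcripts lie in the deleted stretch is not given in the sources used here. By share of nuclei, STX4 library 2 stands apart. Cyp2e1, an adipocyte transcript there, had UMIs in 9.32% to 15.6% of its nuclei of each other type with at least 50 nuclei. Such types of any other library had at most 1.82%. Adipocyte nuclei with Cyp2e1 were also more frequent there, at 31.6% against 2.16% in STX4 library 1. Other types of library 1 came near its adipocyte share, at 1.82% and 1.32%, on 2 and 1 UMIs. Slc36a2 was found in 54.5% and 56.6% of those nuclei of library 1 and in 22.6% to 34.1% in library 2. Neither STX4 library is thus free of such UMIs in other types.

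Amino acid carriers, an ATP-gated channel, a peptidase, lipid- and peptide-sensing receptors and a glucose carrier are all exposed on the adipocyte surface. Slc7a10 encodes ASC-1, a carrier of small neutral amino acids. Slc36a2 encodes PAT2, a proton-coupled amino acid carrier, and P2rx5 encodes an ATP-gated ion channel. Trhde encodes an ectoenzyme that degrades thyrotropin-releasing hormone. Cmklr1 encodes a receptor of chemerin, a peptide that attracts immune cells and is also made by adipocytes. Ffar4 encodes GPR120, a receptor of long-chain fatty acids. Slc2a4 encodes GLUT4, the insulin-responsive glucose carrier of fat and muscle, whose arrival at the plasma membrane uses the syntaxin encoded by Stx4a. Cyp2e1, a cytochrome P450 gene, marks a rare adipocyte class known in mouse brown fat, and adipocyte nuclei with and without its UMIs are set against each other below.

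In GRCm38 (mm10), Slc7a10 spans chr7:35186385-35201114 on the plus strand, Trhde chr10:114398823-114802307, Cmklr1 chr5:113612354-113650426 and Slc2a4 chr11:69942539-69948188, all 3 of these on the minus strand. Ffar4 spans chr19:38097071-38114263 and P2rx5 chr11:73160421-73172685, both on the plus strand, and Slc36a2 chr11:55158470-55185077 on the minus strand. Each is annotated as protein coding. RefSeq promoters (GRCm38.p6) were matched by symbol for 4 of the 7 genes. The 250 bases before the start of Slc7a10, Trhde and Cmklr1 are shown because these 3 genes were higher together in adipocyte nuclei with Cyp2e1, and those of Ffar4 because it was not. They are read 5′ to 3′ on the strand of the gene, and capitals mark a CCAAT box on either strand.
Slc7a10 (chr7:35186135-35186384, plus): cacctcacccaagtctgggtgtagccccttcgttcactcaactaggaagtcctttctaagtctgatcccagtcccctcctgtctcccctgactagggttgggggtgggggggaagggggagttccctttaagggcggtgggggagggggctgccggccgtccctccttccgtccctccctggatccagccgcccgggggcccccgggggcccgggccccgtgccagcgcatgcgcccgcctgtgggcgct
Trhde (chr10:114802303-114802552, minus): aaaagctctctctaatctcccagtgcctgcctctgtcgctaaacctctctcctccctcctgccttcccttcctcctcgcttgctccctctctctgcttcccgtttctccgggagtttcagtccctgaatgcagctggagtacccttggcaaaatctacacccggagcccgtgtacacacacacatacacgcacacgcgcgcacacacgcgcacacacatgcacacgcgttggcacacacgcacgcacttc
Cmklr1 (chr5:113643604-113643853, minus): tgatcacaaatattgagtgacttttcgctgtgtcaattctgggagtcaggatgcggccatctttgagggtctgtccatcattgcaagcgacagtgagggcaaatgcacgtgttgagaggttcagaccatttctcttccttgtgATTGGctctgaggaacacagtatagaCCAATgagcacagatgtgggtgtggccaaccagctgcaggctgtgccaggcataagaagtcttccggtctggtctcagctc
Ffar4 (chr19:38096829-38097078, plus): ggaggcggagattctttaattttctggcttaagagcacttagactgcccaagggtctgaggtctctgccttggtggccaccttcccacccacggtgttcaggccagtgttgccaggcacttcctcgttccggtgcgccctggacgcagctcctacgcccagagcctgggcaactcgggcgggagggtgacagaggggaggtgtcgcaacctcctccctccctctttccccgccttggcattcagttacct
The Cmklr1 window lies inside the GENCODE span of that gene, before a RefSeq start downstream of the 5′ end of that span. G and C made up 69.6% of the Slc7a10 window, 58% of the Trhde window, 50.4% of the Cmklr1 window and 61.2% of the Ffar4 window. CCAAT was found 2 times in the Cmklr1 window and not in the others, and 33.8% of 32851 RefSeq promoter windows of this length hold it. AGGTCA, the nuclear receptor half-site (in 14% of windows), TTGCNNAA, a C/EBP-type site (9.56%), and an EBF-type palindrome (0.779%) were searched on both strands and were in none of the 4 windows. A match describes letters only.

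Nuclei were placed in a type where at least 3 of 8 fixed markers had a UMI and led every other list by at least 2 markers. None of the 7 genes is a marker. This gave 10499 and 5869 adipocyte nuclei in the STX4 libraries and 756, 830 and 302 in the aging libraries. Ucp1, which encodes the uncoupling protein of brown fat, had 505 to 1671 CPM in these nuclei and less in every other type with at least 50 nuclei of the same library, so the label of brown fat holds in all 5 libraries. No doublet caller was run, and nuclei in which 2 lists came within 1 marker of each other were not gated.

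Types are compared below where they had at least 50 nuclei in a library. Among these, Slc36a2 and Ffar4 were highest in adipocyte nuclei in every library beyond counting error, and P2rx5 in 4 of 5. Slc36a2 stood at 1313 CPM (95% Poisson interval 1305 to 1321) in STX4 library 1 and 720 CPM (710 to 729) in STX4 library 2. Its level was 1411 (1361 to 1462), 1060 (1013 to 1108) and 854 CPM (792 to 920) in aging libraries 1, 2 and 3. Per nucleus this is 9.18 and 3.78 UMIs in the STX4 libraries and 2.29 to 3.99 in the aging libraries. Nearly all adipocyte nuclei of STX4 library 1, 99.3% of them, held a UMI of this amino acid carrier, and in the other libraries the share was 76.7% to 90.6%. After each nucleus was thinned to 1000 UMIs, with 548 shallower nuclei of STX4 library 2 and 59 of aging library 1 left out, the shares were 71.9% and 46.1% in STX4 libraries 1 and 2 and 55% to 73.2% in the aging libraries. In the type with the next level, the ratio of the adipocyte level to it was 4.80 (3.79 to 6.16) for pericyte or smooth muscle nuclei of STX4 library 1. It was 4.12 (3.12 to 5.55), 30.5 (25.4 to 36.9), 16.2 (14.9 to 17.6) and 46.7 (40.6 to 53.8) for endothelial nuclei of the remaining libraries. The margin was thus smallest in the STX4 libraries, in which 22.6% to 56.6% of nuclei of the other compared types held a Slc36a2 UMI, against 0.341% to 10.9% in the aging libraries. All these intervals cover counting error only.

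P2rx5 had 99.1 CPM (96.8 to 101) in adipocyte nuclei of STX4 library 1 and 30.9 CPM (28.9 to 32.9) in STX4 library 2. In aging libraries 1 to 3 it had 96.3 (83.6 to 110), 152 (135 to 171) and 99.8 CPM (79.3 to 124). STX4 library 2 was thus the low one for this channel, and aging library 2 the high one. The highest other type with at least 50 nuclei reached 41.8, 17.9, 5.06, 13.6 and 6.66 CPM in the same order of libraries. The adipocyte level of STX4 library 2 and the next level, that of 62 T lymphocyte nuclei with 2 UMIs, had a ratio of 1.73 (0.477 to 14.3), so their order was not detectable at this depth. In the other libraries the ratio to the next type lay between 2.37 (1.50 to 4.01) and 19.0 (10.9 to 36.4).

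Ffar4 had 78.8 CPM (76.8 to 80.8) and 118 CPM (114 to 121) in adipocyte nuclei of STX4 libraries 1 and 2, and 45.8 (37.2 to 55.8), 51.2 (41.4 to 62.7) and 32.0 CPM (20.9 to 46.9) in the aging libraries. The fatty acid receptor is the one of these 3 genes that was higher in STX4 library 2 than in STX4 library 1. Other types with at least 50 nuclei had at most 16.2, 21, 1.56, 3.19 and 0.737 CPM. The ratio of the adipocyte level to the next of these was 4.85 (2.35 to 12.1), 5.61 (2.57 to 15.3), 29.4 (11.1 to 110), 16.1 (5.33 to 79.3) and 43.4 (7.14 to 1781). Smaller types left out had up to 43.4 CPM in STX4 library 1, from 6 UMIs in 46 endothelial nuclei. In STX4 library 2, 9 Schwann nuclei had 156 CPM from 3 UMIs. In the 2 matrices, 24.9% to 33.1% of adipocyte nuclei of the STX4 libraries and 7.28% to 11% of those of the aging libraries held a Ffar4 UMI.

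Slc7a10 had a very uneven level in adipocyte nuclei between libraries. It had 6.05 CPM (5.50 to 6.64) in adipocyte nuclei of STX4 library 1 and 284 CPM (278 to 290) in STX4 library 2. Aging libraries 1, 2 and 3 had 24.3 (18.2 to 31.9), 2.18 (0.594 to 5.58) and 9.86 CPM (4.26 to 19.4), the lowest from 4 UMIs. The share of adipocyte nuclei with a UMI was 2.36% in STX4 library 1 and 41.8% in STX4 library 2, or 0.562% and 19.6% after thinning to 1000 UMIs. In aging library 1 the 2258 endothelial, 293 fibroblast or progenitor, 1845 pericyte or smooth muscle and 491 Schwann nuclei held 0 UMIs of it. The lower 95% limits of the ratio of the adipocyte level to theirs were 16.4, 4.38, 23.1 and 7.39. Other types of STX4 library 2 had 30.2 to 107 CPM, with UMIs in 9.32% to 19.8% of nuclei at median depths of 1563 to 4014 UMIs, against 4266 UMIs for adipocyte nuclei. Cyp2e1 was found in similar shares of these nuclei of other types, as given above. Adipocyte nuclei were 2.65-fold (1.51 to 5.12) above the next type there, T lymphocytes, and 38.4-fold (10.3 to 174) above endothelial nuclei in aging library 3. Few UMIs left the order open to counting error in STX4 library 1, at 1.52-fold (0.272 to 60.4), and in aging library 2, at 2.05-fold (0.203 to 101), both against pericyte or smooth muscle nuclei.

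Slc2a4 was shared with contractile cells. In adipocyte nuclei it had 111 CPM (109 to 114) and 84.7 CPM (81.5 to 88.0) in STX4 libraries 1 and 2, and 70.6 (59.8 to 82.8), 87.2 (74.2 to 102) and 86.3 CPM (67.2 to 109) in the aging libraries. Among the 7 genes its level thus differed least between libraries. The 206 skeletal muscle nuclei of STX4 library 2 had 125 CPM (103 to 149), 1.47-fold (1.21 to 1.77) above the adipocyte nuclei. Pericyte or smooth muscle nuclei came next after adipocyte nuclei in STX4 library 1 (75.4 CPM, 45.4 to 118) and in aging libraries 1 to 3 (48.5, 51 and 28.8 CPM). Their ratio to the adipocyte nuclei was not on 1 side of 1 in STX4 library 1, where the adipocyte level was 1.47-fold theirs (0.943 to 2.45), and in the aging libraries the adipocyte level was 1.46-fold (1.16 to 1.82), 1.71-fold (1.23 to 2.41) and 3.00-fold (2.00 to 4.56) theirs. Endothelial nuclei of the aging libraries had 5.45, 21.2 and 5.13 CPM. In STX4 library 2, pericyte or smooth muscle nuclei had 32.1 CPM from 6 UMIs, between T lymphocyte (35.7 CPM) and endothelial nuclei (28.0 CPM). The adipocyte level there was 2.64-fold (1.21 to 7.20) that of the pericyte or smooth muscle nuclei.

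Cmklr1 was highest outside the adipocytes. Fibroblast or progenitor nuclei had 60.3 CPM (39.4 to 88.4) in STX4 library 1 and 118 (93.3 to 146), 87.5 (53.5 to 135) and 171 CPM (135 to 214) in aging libraries 1 to 3. Adipocyte nuclei of the same libraries had 1.79, 8.88, 2.72 and 19.7 CPM. In each of the aging libraries the fibroblast or progenitor level was above the adipocyte level, by 13.2-fold (7.95 to 23.1), 32.1-fold (11.7 to 110) and 8.67-fold (5.01 to 15.9). STX4 library 2 is the only library with at least 50 macrophage nuclei, and there the chemerin receptor was highest in these 162 nuclei, at 100 CPM (75.1 to 131). That was 1.99-fold (1.22 to 3.35) above its fibroblast or progenitor nuclei, which had 50.3 CPM (32.6 to 74.3), while adipocyte nuclei had 14.9 CPM (13.6 to 16.3).

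Trhde had 25.5 CPM (12.7 to 45.7) in fibroblast or progenitor nuclei of STX4 library 1 and 2.67 CPM (2.31 to 3.07) in its adipocyte nuclei. In aging libraries 1 and 2 the fibroblast or progenitor nuclei were again the highest, with 59.5 (42.7 to 80.7) and 30.6 CPM (12.3 to 63.1) against 14.5 (9.85 to 20.6) and 8.17 CPM (4.57 to 13.5) in adipocyte nuclei. The fibroblast or progenitor level was 9.55-fold (4.69 to 17.5), 4.10-fold (2.51 to 6.77) and 3.75-fold (1.29 to 9.76) the adipocyte level in these 3 libraries. It came from 11 UMIs in 5 nuclei, 41 UMIs in 18 nuclei and 7 UMIs in 4 nuclei. The intervals do not cover such clustering of UMIs within nuclei. The order was the other way round in STX4 library 2, with 113 CPM (109 to 116) in adipocyte nuclei and 30.2 CPM (16.9 to 49.8) in fibroblast or progenitor nuclei. T lymphocyte nuclei came next there with 53.6 CPM (19.7 to 117), and the adipocyte level was 2.10-fold theirs (0.964 to 5.73). In aging library 3 neither could be placed first, with 4 UMIs in adipocyte and 2 in fibroblast or progenitor nuclei.

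**Figure D1:**
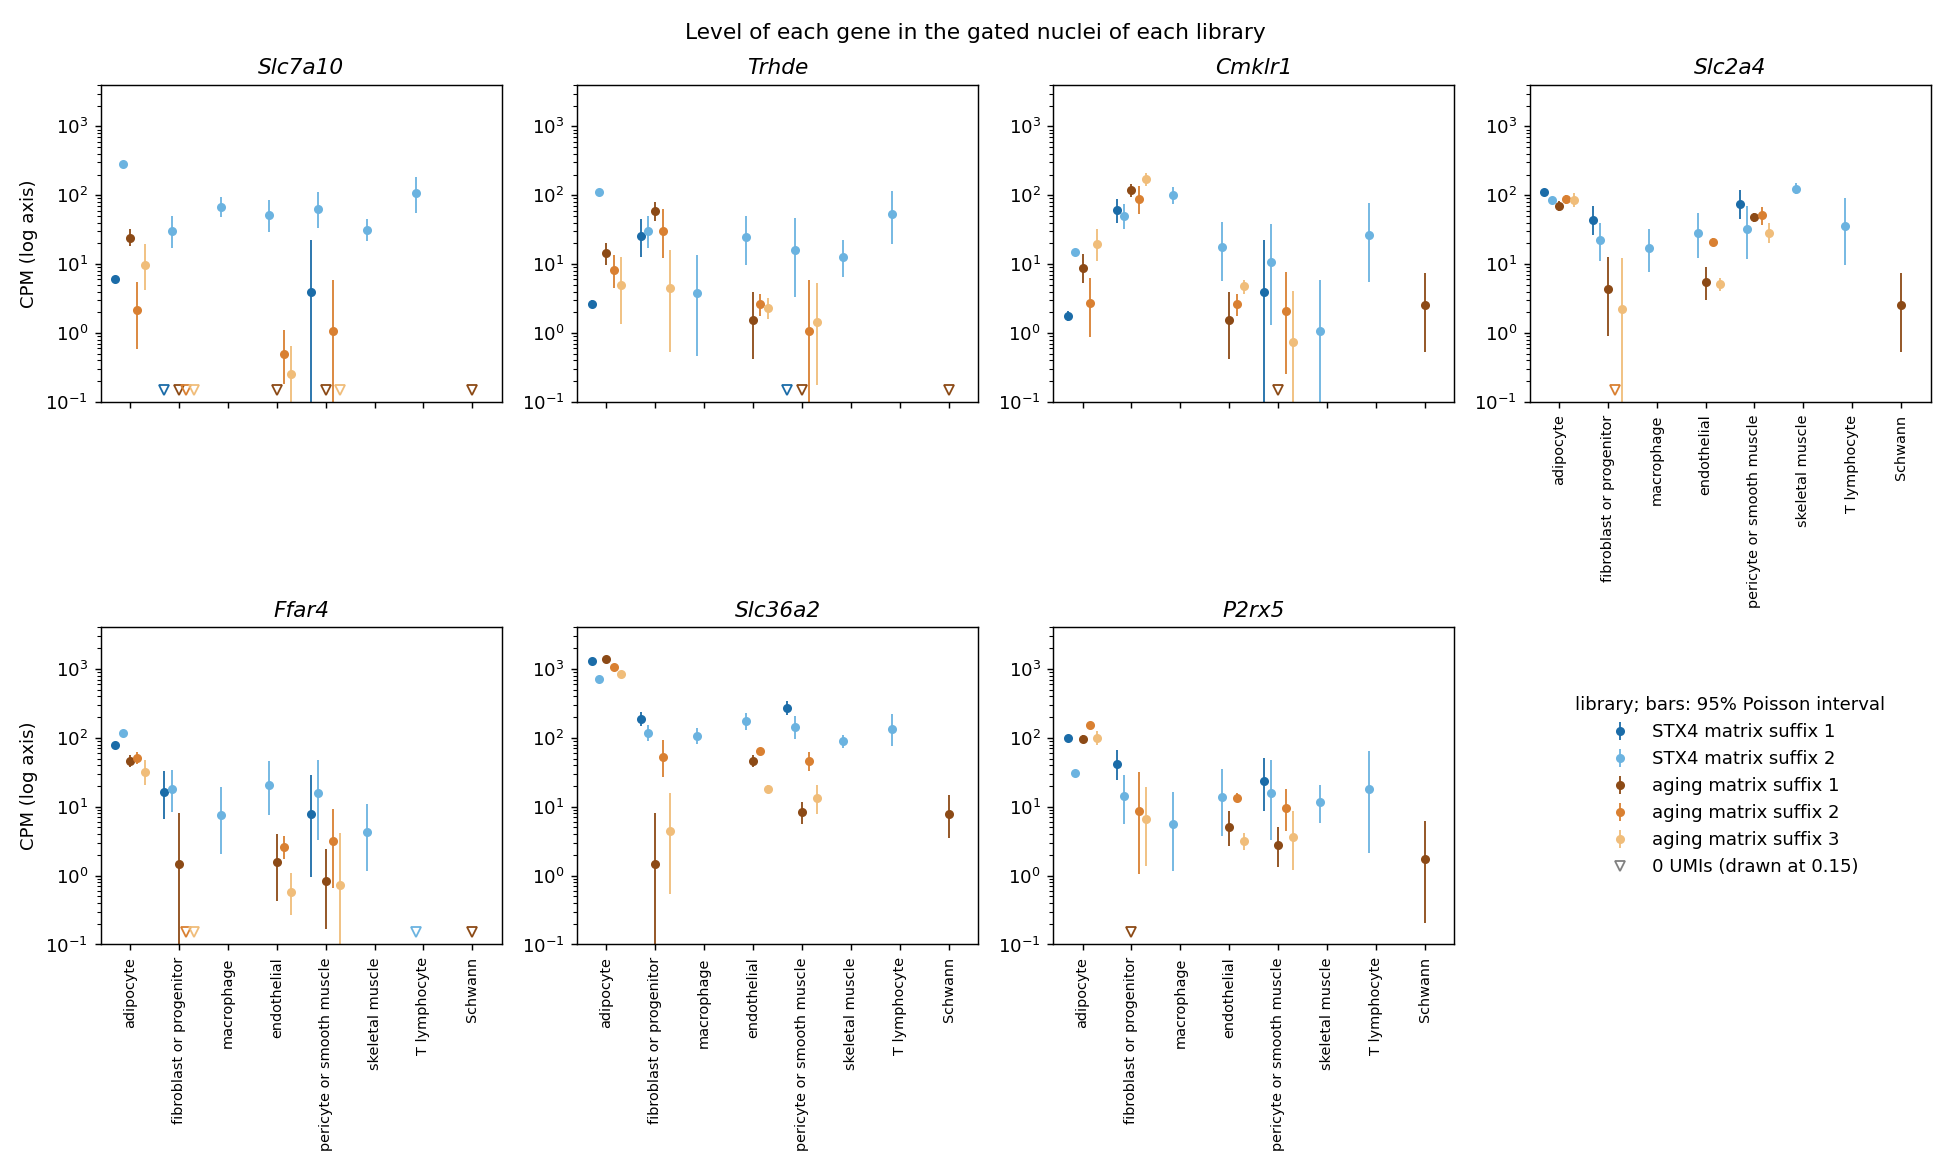
CPM of each gene (log axis) in the gated nuclei of each library, for types with at least 50 nuclei; bars are 95% Poisson intervals and open triangles mark 0 UMIs. Slc36a2 and Ffar4 are highest in adipocyte nuclei throughout, Cmklr1 in fibroblast or progenitor and macrophage nuclei, and Slc7a10 is at 0 in every other type of aging library 1.

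A level at least 2-fold that of every other type with at least 50 nuclei was reached by 3 of the 7 genes in STX4 library 1 (Slc36a2, P2rx5 and Ffar4), where 23.0% of the genes with at least 20 UMIs reached it with only 2 other types to pass. With 6 other types to pass in STX4 library 2, 4 of 7 did (Slc7a10, Slc36a2, Trhde and Ffar4) against 4.10% of genes. Aging library 1 had 4 of 7 (Slc7a10, Slc36a2, P2rx5 and Ffar4) against 10.8%. In aging library 2, 3 of the 6 with at least 20 UMIs did (Slc36a2, P2rx5 and Ffar4) against 9.29%. In aging library 3 it was 4 of 6 against 14%, with Slc2a4 added. Slc7a10 also reached the mark in both on fewer than 20 UMIs, which makes the counts over all 7 genes 4 and 5. Its ratio in aging library 2 was 2.05 (0.203 to 101), so its place there is open to counting error. Slc36a2 and Ffar4 reached the mark in all 5 libraries.

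Adipocyte nuclei were then split by Cyp2e1. A UMI of it was found in 227 of 10499 adipocyte nuclei of STX4 library 1 (2.16%, exact binomial interval 1.89 to 2.46), in 1854 of 5869 of STX4 library 2 (31.6%, 30.4 to 32.8) and in 47 of 756 of aging library 1 (6.22%, 4.60 to 8.18). Aging libraries 2 and 3 had 10 and 4 such nuclei, and they are left out of what follows. Those 10 nuclei held 2 UMIs of Slc7a10, 2 of Trhde and 3 of Cmklr1, against 2, 13 and 2 UMIs in the 820 adipocyte nuclei without Cyp2e1, and the 4 nuclei held none of these 3 genes. In aging libraries 2 and 3, Slc36a2 had ratios of 1.11 (0.782 to 1.54) and 1.07 (0.564 to 1.83). Ucp1 had 0.913 (0.672 to 1.21) and 3.31 (2.07 to 5.04), so it was higher with Cyp2e1 in aging library 3, on 23 UMIs in 4 nuclei. Nuclei with Cyp2e1 were deeper, with median UMIs of 7235 against 6191, 5628 against 3650 and 3797 against 2463, so levels are compared as CPM and again within 3 equal classes of depth. The UMIs of Cyp2e1 and Slc36a2 in nuclei of other types of both STX4 libraries are to be kept beside the values of these libraries. The part of such UMIs in the ratios was not tested.

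Slc7a10, Trhde and Cmklr1 were higher in adipocyte nuclei with Cyp2e1, at least 29.0-fold in STX4 library 1 and aging library 1 and less than 3-fold in STX4 library 2, while Slc36a2 was lower by a smaller factor. These are levels of the class as a sum, and not every nucleus of it held the genes. A Slc7a10 UMI was in 57 of 227 nuclei with Cyp2e1 in STX4 library 1 (25.1%) and 20 of 47 in aging library 1 (42.6%). The share in STX4 library 2 was 65.7%. The intervals do not cover clustering of UMIs within nuclei. In STX4 library 1, Slc7a10 had 98.2 CPM with Cyp2e1 (203 UMIs) and 3.38 CPM without (241 UMIs), which is 29.0-fold (24.0 to 35.2). The ratio was 2.71 (2.60 to 2.84) in STX4 library 2, from 459 and 169 CPM, and 95.6 (38.2 to 308) in aging library 1, from 245 and 2.57 CPM. The amino acid carrier was thus higher with Cyp2e1 in all 3 libraries, and the ratio was smallest in STX4 library 2. In the low, middle and high depth class of STX4 library 1 the ratio was 28.4 (18.7 to 42.5), 43.2 (29.7 to 62.7) and 29.4 (22.2 to 39.2). The values in STX4 library 2 were 1.88 (1.59 to 2.21), 2.80 (2.59 to 3.03) and 2.92 (2.75 to 3.09). Among all genes with at least 20 UMIs over both classes, Slc7a10 ranked 10 of 15977 by this ratio in STX4 library 1, 160 of 14725 in STX4 library 2 and 1 of 9193 in aging library 1.

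Trhde had 55.6 CPM with Cyp2e1 (115 UMIs) and 1.14 CPM without (81 UMIs) in STX4 library 1, a ratio of 49.0 (36.5 to 65.9). STX4 library 2 had 188 and 63.6 CPM, a ratio of 2.95 (2.75 to 3.17), and aging library 1 had 120 and 4.11 CPM, a ratio of 29.2 (12.6 to 75.6). Its UMIs were in 31 of 227 nuclei with Cyp2e1 in STX4 library 1 (13.7%), 645 of 1854 in STX4 library 2 (34.8%) and 12 of 47 in aging library 1 (25.5%). This peptidase gene ranked 4, 115 and 4 by ratio among the genes of these libraries. Within the depth classes the ratio was 30.7 (15.4 to 59.0), 65.5 (38.9 to 111) and 70.7 (43.3 to 119) in STX4 library 1, and 1.56 (1.14 to 2.11), 2.52 (2.20 to 2.89) and 3.26 (2.98 to 3.58) in STX4 library 2. With Cyp2e1, the adipocyte level of Trhde was above the 25.5 CPM of the fibroblast or progenitor nuclei of STX4 library 1. Without it, it was below.

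Cmklr1 had 30.0 CPM with Cyp2e1 (62 UMIs) and 0.968 CPM without (69 UMIs) in STX4 library 1, a ratio of 31.0 (21.6 to 44.3) and rank 9. Of its nuclei with 1, 2 to 4 and 5 or more Cyp2e1 UMIs, 5.88%, 29.4% and 34.8% held a Cmklr1 UMI. Aging library 1 had 83.5 and 1.54 CPM, from 16 and 3 UMIs, a ratio of 54.2 (15.5 to 290). There the shares of the same nuclei were 6.25%, 23.5% and 21.4%. The levels in STX4 library 2 were 19.9 and 11.6 CPM, a ratio of 1.71 (1.42 to 2.06) and rank 892. There it was above 1 in the high depth class, at 2.94 (2.19 to 3.99), and in the middle class, at 1.43 (1.02 to 1.99), and had an interval on both sides of 1 in the low class, at 1.13 (0.605 to 1.98).

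Since Cmklr1 and Trhde are also read in fibroblast or progenitor nuclei and Cmklr1 in macrophage nuclei, the marker lists of these types were summed in the same adipocyte nuclei. The macrophage list of STX4 library 1 summed to 54.2 CPM with Cyp2e1, with 6 of 8 markers present and Adgre1 and Ms4a7 at 0, and to 26.6 CPM without, with 8 of 8. The fibroblast or progenitor list summed to 39.7 CPM with Cyp2e1, with Pi16 and Dpp4 at 0, and to 35.1 CPM without. The 37 gated macrophage nuclei summed to 8777 CPM of their own list and the gated fibroblast or progenitor nuclei to 5837 CPM of theirs. Both lists were lower with Cyp2e1 in STX4 library 2, at 122 against 153 CPM for macrophages and 82.0 against 123 CPM for fibroblasts or progenitors. Their sums in aging library 1 were 94.0 against 85.8 CPM, with 1 of 8 macrophage markers present with Cyp2e1, and 355 against 146 CPM. In adipocyte nuclei without any UMI of either list, a setting added after seeing the data, the Cmklr1 ratio was 44.2 (25.5 to 76.8) in STX4 library 1 and 2.99 (2.08 to 4.33) in STX4 library 2. In aging library 1 such nuclei held 11 UMIs of Cmklr1 in 28 nuclei with Cyp2e1 and 0 in 508 without. The Trhde ratio in the 3 libraries was 46.9 (30.6 to 72.0), 2.70 (2.43 to 3.01) and 54.9 (11 to 531), the last from 8 and 2 UMIs. The part of RNA from these other types in the ratios over all adipocyte nuclei was not tested further.

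Slc36a2, the brown and beige marker, was lower with Cyp2e1 in all 3 libraries. It had 1155 CPM with and 1318 CPM without in STX4 library 1, a ratio of 0.877 (0.842 to 0.913). In STX4 library 2 the ratio was 0.839 (0.816 to 0.863), from 645 and 768 CPM, and in aging library 1 it was 0.683 (0.587 to 0.792), from 992 and 1452 CPM. Counted from the highest ratio, Slc36a2 ranked 10707 of 15977, 9914 of 14725 and 6468 of 9193 genes in these libraries. Many genes thus had lower ratios, and the lower level is not particular to this marker. P2rx5, the other brown and beige marker, had intervals on both sides of 1 throughout, with ratios of 0.970 (0.839 to 1.12), 0.988 (0.865 to 1.13) and 0.685 (0.358 to 1.20). The P2rx5 interval of STX4 library 2 lies above the Slc36a2 ratio of that library, whereas that of STX4 library 1 includes the Slc36a2 ratio of library 1. Slc36a2 of STX4 library 2 had a ratio of 1.04 (0.924 to 1.17) in the low depth class, and of 1.19 (0.983 to 1.43) in the nuclei of 200 to 2000 UMIs, so its lower level was not seen in shallow nuclei. In those nuclei of STX4 library 2 the Cmklr1 ratio was 0.796 (0.242 to 2.07).

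Ffar4 was lower with Cyp2e1 in STX4 library 2, at 81.9 against 141 CPM, a ratio of 0.582 (0.541 to 0.626), and the ratio was 0.601, 0.504 and 0.581 in the depth classes. The ratio in STX4 library 1 was 0.856 (0.719 to 1.01), and in aging library 1 0.904 (0.379 to 1.86) from 8 and 90 UMIs. Slc2a4 had ratios of 0.925 (0.803 to 1.06), 0.880 (0.812 to 0.953) and 0.494 (0.195 to 1.04), so that GLUT4 transcripts were lower with Cyp2e1 beyond counting error in STX4 library 2 alone, and no test of the difference between libraries was made.

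In all, 3 of 7 genes were higher with Cyp2e1 in STX4 library 1, against 8.56% of all genes, and 1 of 7 was lower, against 7.12%. Of the 7 genes in STX4 library 2, 3 were higher against 19.2% and 3 lower against 26.9%. In aging library 1, 3 of 7 were higher against 8.15% and 1 of 7 lower against 7.06%. The background is over genes with at least 20 UMIs in both classes together, and Cmklr1 of aging library 1, with fewer, is among the 3. The median ratio over all these genes was 0.975, 0.961 and 0.919.

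**Figure D2:**
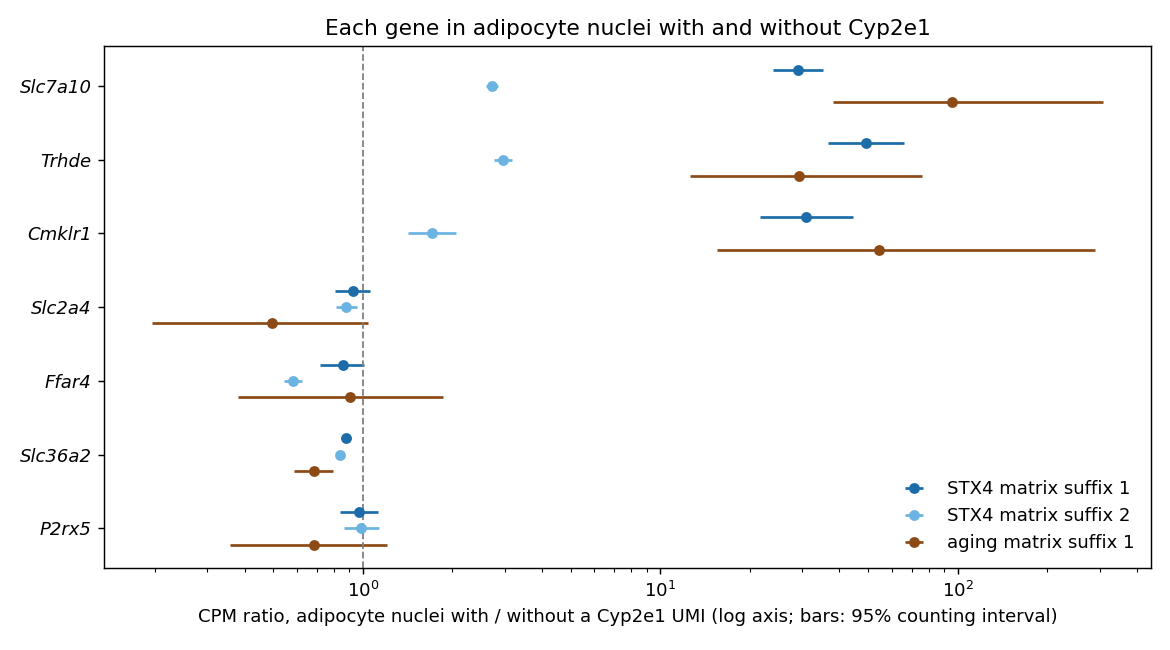
CPM ratio of each gene in adipocyte nuclei with a Cyp2e1 UMI to those without (log axis), with exact 95% counting intervals, in 3 libraries; the dashed line marks a ratio of 1. Slc7a10, Trhde and Cmklr1 lie right of the line in all 3 libraries and Slc36a2 lies left of it.

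Slc7a10 and Trhde were higher in nuclei with 2 or more Cyp2e1 UMIs than in those with 1 in both STX4 libraries. In STX4 library 1, Slc7a10 had 3.38 CPM in nuclei with 0 Cyp2e1 UMIs, 35.7 CPM with 1, 193 CPM with 2 to 4 and 241 CPM with 5 or more, from 10272, 153, 51 and 23 nuclei. Trhde had 1.14, 24.5, 98.0 and 133 CPM in the same order. Cmklr1 had 0.968, 12.6, 72.9 and 49.4 CPM. The intervals of the upper 2 bins overlapped for all 3 genes. The same bins of STX4 library 2 held 4015, 840, 525 and 489 nuclei and the steps were smaller. Slc7a10 had 169, 276, 498 and 621 CPM, Trhde 63.6, 86.1, 248 and 245 CPM, and Cmklr1 11.6, 12.3, 21.8 and 26.3 CPM. Here the upper 2 bins were apart for Slc7a10 and overlapped for Trhde and Cmklr1. Depth differed between the bins, with median UMIs of 6191, 7088, 6429 and 10384 in STX4 library 1. The medians in STX4 library 2 were 3650, 4425, 5529 and 7572 UMIs. The bins were not read within depth classes, and the part of depth in the steps was not tested.

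Against them, Ffar4 was lower bin by bin in STX4 library 2, with 141, 122, 71.9 and 47.6 CPM. Slc36a2 had 768, 785, 594 and 538 CPM there, and 1318, 1231, 995 and 1039 CPM in STX4 library 1. Nuclei with a single Cyp2e1 UMI thus had about the Slc36a2 level of nuclei with none in STX4 library 2, and the lower level was in those with 2 or more. P2rx5 stayed between 26.3 and 33.1 CPM in STX4 library 2 with overlapping intervals. Ffar4 in STX4 library 1 had 79.1, 64.7, 57.8 and 92.5 CPM, with no order beyond its intervals in the upper bins. Ucp1, given for comparison, had 1022, 889, 344 and 183 CPM in STX4 library 2 and 1020, 992, 550 and 506 CPM in STX4 library 1. In aging library 1 the 3 bins with Cyp2e1 held 14 to 17 nuclei each, and Slc7a10 had 2.57, 113, 185 and 395 CPM. Trhde had 4.11, 113, 15.4 and 218 CPM and Cmklr1 1.54, 18.8, 123 and 95.3 CPM there, so neither followed the bins in order.

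**Figure D3:**
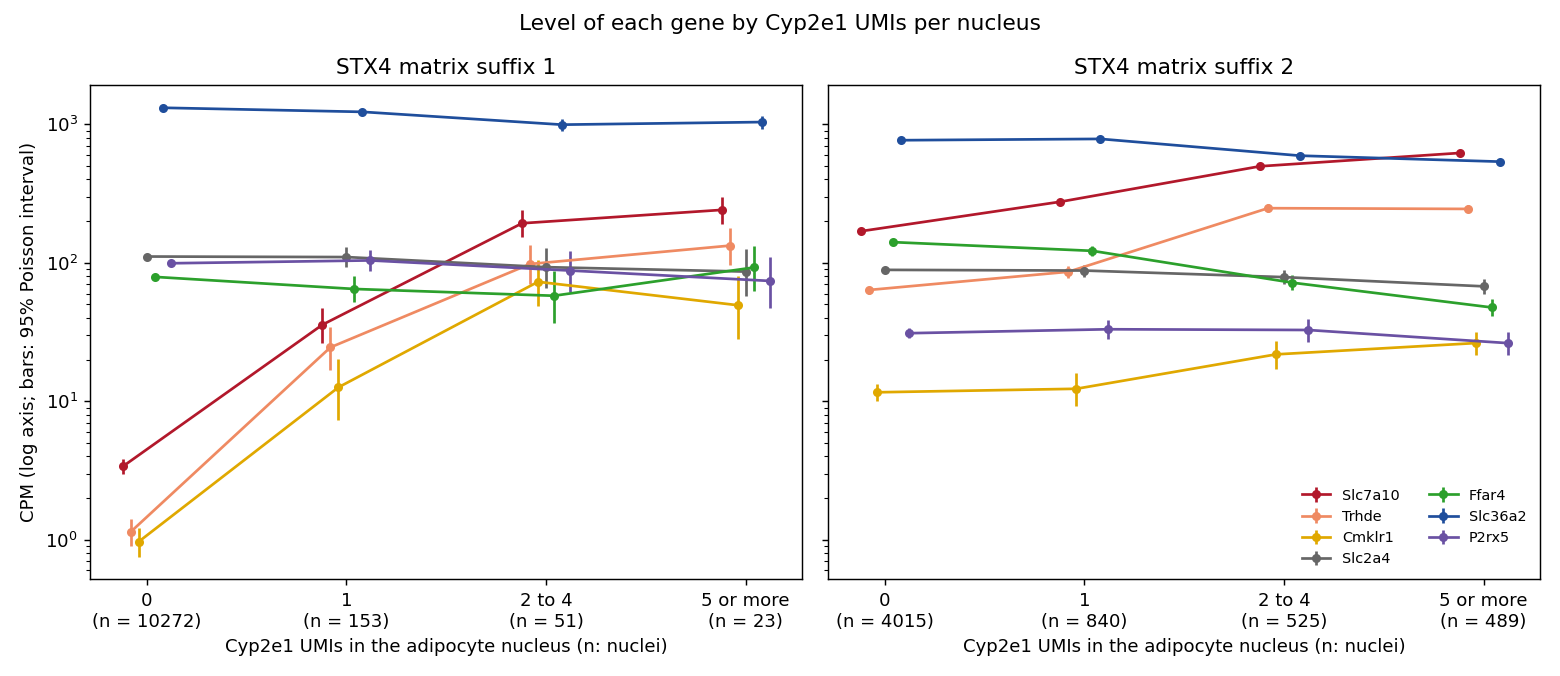
CPM of each gene (log axis, 95% Poisson intervals) in adipocyte nuclei of the STX4 libraries with 0, 1, 2 to 4 and 5 or more Cyp2e1 UMIs. Slc7a10 goes from 3.38 to 241 CPM in library 1 and from 169 to 621 CPM in library 2, and Ffar4 from 141 to 47.6 CPM in library 2.

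The genes were also set against each other, by splitting adipocyte nuclei on a UMI of one and reading the level of another. A deeper nucleus holds a UMI of any gene more often, and these splits are not given within depth classes. Slc7a10, Trhde and Cmklr1 went together. In STX4 library 1, Trhde was 71.6-fold (52.7 to 98.3) higher in the 248 nuclei with Slc7a10 and 129-fold (96.5 to 173) higher in the 88 nuclei with Cmklr1. Cmklr1 was 54.5-fold (37.2 to 78.9) higher in the 84 nuclei with Trhde, and Slc7a10 45.9-fold (37.3 to 56.3). All these ratios were above 1 and smaller in STX4 library 2, from 1.65 (1.36 to 2.01) for Cmklr1 by Slc7a10 to 5.37 (4.88 to 5.90) for Trhde by Slc7a10.

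The pairs also went together in adipocyte nuclei with no Cyp2e1 UMI, a split added after seeing the data. Among them in STX4 library 1, Trhde was 32.9-fold (20.6 to 52.2) and Cmklr1 13.1-fold (6.97 to 23.2) higher with Slc7a10, and Trhde was 69.2-fold (40.4 to 115) higher with Cmklr1. Trhde of STX4 library 2 was 4.74-fold (4.16 to 5.42) higher with Slc7a10, and Cmklr1 was 1.18-fold (0.887 to 1.55), with an interval on both sides of 1. Taking the 3 genes as a set, 21 adipocyte nuclei of STX4 library 1 held UMIs of all 3, and 16 of these (76.2%) also held Cyp2e1, against 161 of the 10158 nuclei with none of the 3 (1.58%). The counts in STX4 library 2 were 92 of 127 (72.4%) against 530 of 3027 (17.5%), with median depths of 8119 and 3289 UMIs. The median depths in STX4 library 1 were 6426 and 6196 UMIs.

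Slc36a2 had the reverse pattern. In STX4 library 1 it had 1320 CPM in nuclei with none of the 3 genes, 1220 CPM with 1 of them, 790 CPM with 2 and 697 CPM with all 3. Its levels in STX4 library 2 were 874, 686, 492 and 515 CPM. Ffar4 in STX4 library 2 had 178, 88.8, 48.7 and 76.1 CPM, with the interval of the last above that of the one before. Only 75 adipocyte nuclei of STX4 library 1 held no Slc36a2 UMI, and they had 77.7 CPM of Slc7a10 and 42.7 CPM of Cmklr1, against 5.80 and 1.64 CPM in the 10424 nuclei with a UMI. The 1367 nuclei of STX4 library 2 without Slc36a2 had 361 CPM of Slc7a10 and 37.3 CPM of Cmklr1, against 274 and 12.2 CPM, and 48.9 CPM of Ffar4 against 126 CPM. Trhde differed less by Slc36a2, with 2 UMIs in the 75 nuclei of STX4 library 1 and a ratio with to without Slc36a2 of 0.342 (0.0933 to 2.84), and with 111 against 125 CPM in STX4 library 2, a ratio of 0.887 (0.80 to 0.986). In STX4 library 2, Ffar4 was 1.32-fold (1.23 to 1.41) higher with Slc2a4 and 2.57-fold (2.19 to 3.03) higher with Slc36a2. Ffar4 also differed by depth there, with 101, 145 and 149 CPM in the low, middle and high depth class of nuclei without Cyp2e1. The part of depth in these 2 ratios was not tested. The corresponding Ffar4 ratios in STX4 library 1 were 1.02 (0.967 to 1.07) and 1.27 (0.780 to 2.22).

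**Figure D4:**
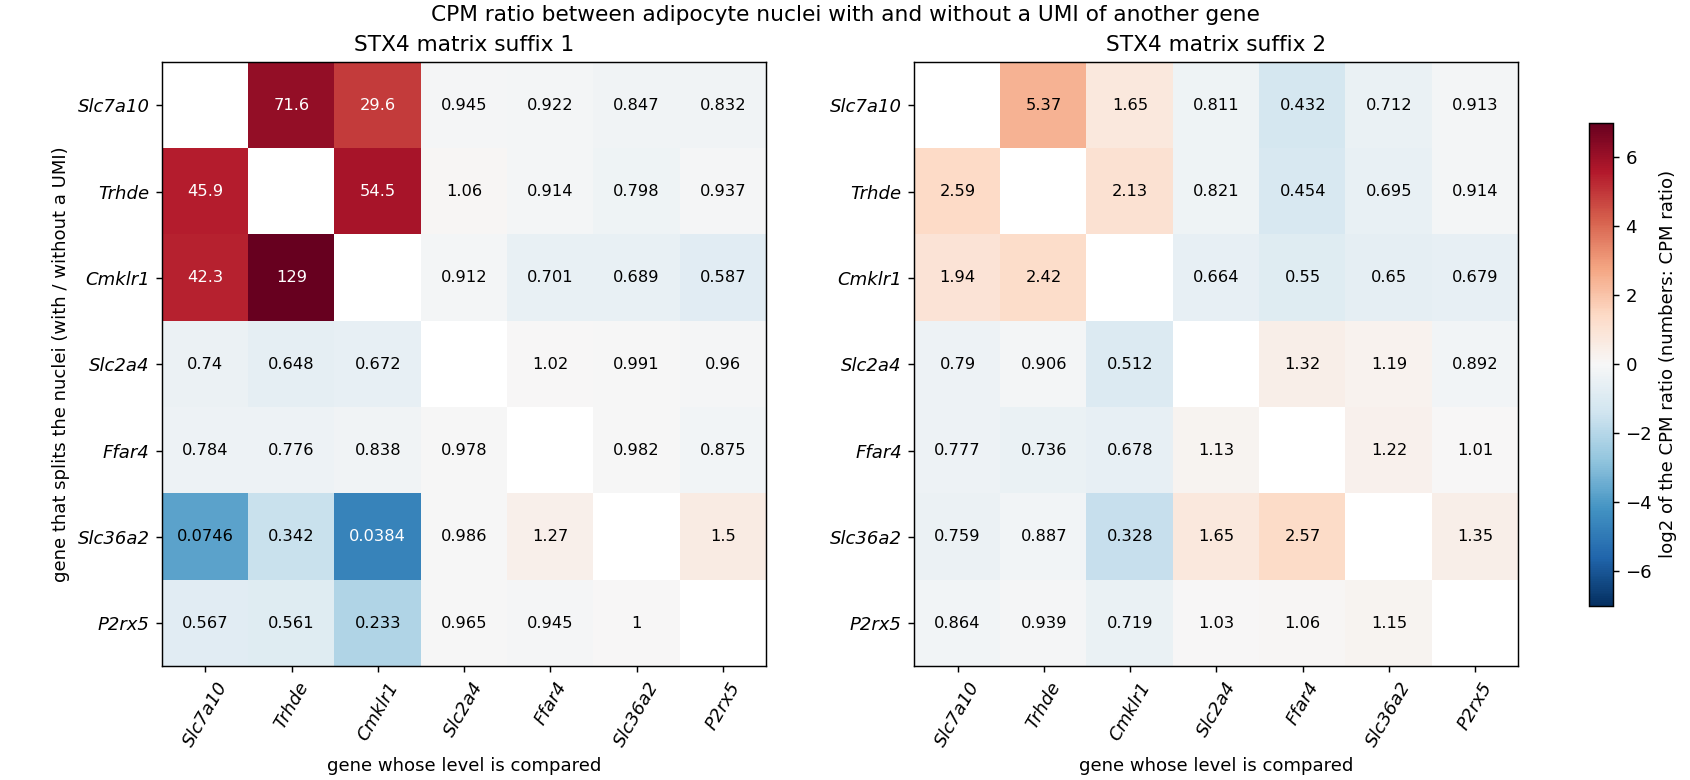
CPM ratio of the gene in the column between adipocyte nuclei with and without a UMI of the gene in the row, in STX4 libraries 1 and 2; colours give log2 of the ratio. Slc7a10, Trhde and Cmklr1 form a block of ratios above 1, from 29.6 to 129 in library 1 and from 1.65 to 5.37 in library 2.

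Between libraries of a matrix, the 7 genes fell on both sides. In adipocyte nuclei the ratio of STX4 library 1 to library 2 was 0.0213 (0.0193 to 0.0235) for Slc7a10, 0.0237 (0.0204 to 0.0274) for Trhde and 0.120 (0.0980 to 0.146) for Cmklr1. It was 0.670 (0.643 to 0.699) for Ffar4, and above 1 for Slc2a4 at 1.31 (1.26 to 1.37), Slc36a2 at 1.82 (1.80 to 1.85) and P2rx5 at 3.21 (3.00 to 3.44). In the STX4 matrix, the 3 genes that were higher with Cyp2e1 were thus lower in the library with fewer Cyp2e1 nuclei. Nuclei without Cyp2e1 differed between the libraries too, with Slc7a10 at 3.38 and 169 CPM. In the aging libraries Slc7a10 was 11.2-fold (4.10 to 42.5) higher in library 1 than in library 2, and Slc36a2 was higher in library 1 than in libraries 2 and 3, by 1.33-fold (1.26 to 1.41) and 1.65-fold (1.52 to 1.80). Trhde was 1.77-fold (0.929 to 3.53) and 2.94-fold (1.04 to 11.5) the level of libraries 2 and 3 in library 1. Cmklr1 was 3.26-fold (1.18 to 11.2) higher in library 1 than in library 2 but lower in library 1 than in library 3, with a ratio of 0.451 (0.219 to 0.937), although library 3 had the smaller share of Cyp2e1 nuclei. Slc2a4 had ratios of 0.810 (0.644 to 1.02) and 0.818 (0.613 to 1.10) for the same pairs, with intervals on both sides of 1. The genotype, age, mice and depth behind each library cannot be told apart here.

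Over 23 profiles of a type in a library, the genes whose log2(CPM + 1) followed each gene most closely were named as a description, since profiles of 1 library share its depth and background. Among 14392 genes with at least 200 UMIs, Cyp2e1 was closest to Slc7a10 (Pearson's r = 0.952), followed by Mfsd2a (0.948), which encodes a lipid carrier, and Gm454 (0.934). Slc36a2 was closest to Pank1 (0.979), an enzyme gene of coenzyme A synthesis, Adtrp (0.973) and Rgs2 (0.973), and P2rx5 to Pank1 (0.957), Rgs2 (0.951) and Slc27a2 (0.951). These brown and beige markers had r = 0.935 with each other and 0.585 and 0.392 with Slc7a10. Trhde was closest to Fgf10 (0.851), a growth factor gene of mesenchymal cells, Sema3a (0.830) and Golph3 (0.824). Cmklr1 was closest to Slc41a2 (0.885), Rab7b (0.884) and Pla2g4a (0.876). Slc2a4 was closest to Myl1 (0.938), a muscle myosin light chain gene, Qrsl1 (0.886) and Ganc (0.884), and Ffar4 to Gm35853 (0.923), BC035947 (0.923) and Dmrt2 (0.919).

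Genes related to the 7 were read in the same split by Cyp2e1, from 9 lists. These lists were chosen with earlier results of these data known, so their counts are a description only. Their counts stand beside shares over all genes of 8.56% higher and 7.12% lower in STX4 library 1, 19.2% and 26.9% in STX4 library 2, and 8.15% and 7.06% in aging library 1. Of 10 white adipocyte genes, 7 had at least 20 UMIs in STX4 library 1, of which 5 were higher with Cyp2e1 and 0 lower, with a median ratio of 6.86. In STX4 library 2 it was 6 of 7 higher, with a median of 2.37, and in aging library 1 it was 5 of 5, with a median of 4.62. Retn, which encodes resistin, had 81.7 against 3.23 CPM in STX4 library 1, a ratio of 25.3 (20.6 to 31.0). Nnat, which encodes neuronatin, had a ratio of 8.01 (7.33 to 8.75) and Aldh1a1, a retinaldehyde dehydrogenase gene, 6.86 (5.23 to 8.88). Aldh1a1 was far higher outside the adipocytes. Fibroblast or progenitor nuclei had 1132 CPM in STX4 library 1 and 724 CPM in aging library 1, against 33.9 and 83.5 CPM in adipocyte nuclei with Cyp2e1. Skeletal muscle nuclei of STX4 library 2 had 463 CPM, against 104 CPM. The part of RNA from these other types in the Aldh1a1 ratios was not tested. Lep, which encodes leptin, had 1.47 (0.865 to 2.36) in STX4 library 1 and 2.37 (2.05 to 2.73) in STX4 library 2.

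Of 11 brown adipocyte genes, 8 were lower and 1 higher with Cyp2e1 in STX4 library 1, 9 lower and 1 higher in STX4 library 2, and 6 lower and 1 higher of 10 with enough UMIs in aging library 1. Ucp1 had ratios of 0.814 (0.776 to 0.854), 0.478 (0.464 to 0.492) and 0.337 (0.262 to 0.426), and Cidea, a lipid droplet gene, 0.805, 0.628 and 0.473. The gene that was higher was Lhx8, a transcription factor gene, in each of the 3 libraries, with ratios of 1.52 (1.03 to 2.16), 1.54 (1.20 to 1.99) and 6.58 (2.78 to 14.9). The median ratio over the list was 0.844, 0.628 and 0.535.

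Among fatty acid receptors and surface proteins, Ffar2, the short-chain fatty acid receptor gene, was higher with Cyp2e1 in both STX4 libraries, while Ffar4 was lower in STX4 library 2 and had an interval on both sides of 1 in STX4 library 1. Ffar2 had 17.4 against 0.645 CPM in STX4 library 1, a ratio of 27.0 (16.9 to 42.7), and 25.5 against 10.1 CPM in STX4 library 2, a ratio of 2.52 (2.10 to 3.03). Slc27a1, a fatty acid carrier gene, had ratios of 1.60 (1.51 to 1.68), 2.07 (2.01 to 2.12) and 4.30 (3.56 to 5.18). Of 6 genes on the list, 4 had enough UMIs in each STX4 library, with 2 and 3 higher and 0 lower.

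Among 5 other glucose carriers, Slc2a3, which encodes GLUT3, was higher with Cyp2e1 while Slc2a4 was not. It had 45.9 against 15.3 CPM in STX4 library 1, a ratio of 3.01 (2.41 to 3.71), and ratios of 2.63 (2.19 to 3.16) and 7.32 (3.76 to 14) in STX4 library 2 and aging library 1. Slc2a12 was lower in STX4 library 2, at 0.510 (0.250 to 0.977), and the other carriers with enough UMIs had intervals on both sides of 1. Of 8 genes of GLUT4 vesicle traffic, 1 was higher in STX4 library 1, 2 higher and 1 lower in STX4 library 2, and 1 higher and 2 lower in aging library 1. Sort1, which encodes sortilin, had ratios of 1.12 (1.03 to 1.22) and 1.56 (1.48 to 1.64) in the STX4 libraries, and Stx4a had 0.938 (0.774 to 1.13) and 0.964 (0.870 to 1.07).

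Of 9 amino acid carrier genes related to Slc7a10 and Slc36a2, 2 were higher and 0 lower in STX4 library 1, and 1 was higher and 5 lower of 7 in STX4 library 2. Slc1a5, a neutral amino acid carrier gene, was higher in all 3 libraries, with ratios of 1.40 (1.34 to 1.46), 2.48 (2.44 to 2.53) and 1.68 (1.51 to 1.88). Slc36a1, the closest relative of Slc36a2 on the list, had 0.816 (0.593 to 1.10) and 0.611 (0.515 to 0.723) in the STX4 libraries. Slc7a11, the cystine carrier gene, went 2 ways, at 2.31 (1.17 to 4.14) in STX4 library 1 and 0.746 (0.674 to 0.824) in STX4 library 2.

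Of 11 other purinergic receptor genes, 0 of 8 with enough UMIs were higher or lower in STX4 library 1, 1 was higher and 5 lower of 9 in STX4 library 2, and 1 of 5 was higher in aging library 1. P2rx4 had 0.995 (0.789 to 1.24) and 0.798 (0.732 to 0.869) in the STX4 libraries. Rarres2, which encodes chemerin, the ligand of the Cmklr1 receptor, had 10.2 against 4.99 CPM in STX4 library 1, a ratio of 2.03 (1.24 to 3.16), and 1.03 (0.795 to 1.33) in STX4 library 2. Trh, Trhr and Trhr2, the hormone that the Trhde product degrades and its receptors, had at most 1 UMI each in adipocyte nuclei of any of the 3 libraries, so 0 of 3 could be compared.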

How the data were processed

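Each condition was 1 snRNAseq library of sorted iBAT nuclei. The 2 matrices hold UMI counts of genes in nuclei, deposited without normalisation. Per the submitters' processing notes, Cell Ranger 6.1.2, Seurat 4.1.0 and the mm10 build were used. The methods state 10000 forced cells a library. The 7 genes, the marker and related lists and the splits were chosen with earlier results of these data known.

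From these counts, sums over gated nuclei were computed (Python 3.11.15; scipy 1.17.1; numpy 2.4.6; pandas 2.3.3). Intervals are at 95%: Poisson (exact) for CPM, Clopper-Pearson for shares, and the exact conditional binomial for a ratio of CPM. Ratio intervals were tested on simulated Poisson sums only. Such sums leave out clustering of UMIs within nuclei, so coverage under clustering was not tested. A gene was called higher or lower where the interval of its ratio lay on 1 side of 1. There are no replicates, hence no p-values, and every interval is for counting error alone.

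The 7 genes are named in full. Related genes are counted by list, and those named had at least 200 UMIs in adipocyte nuclei of the STX4 matrix, except Trh, Trhr and Trhr2, which are named for being near 0. For patterns, the 3 most correlated genes are named. Alternatives changed the gate, the depth limits, the deepest nuclei, thinning, mitochondrial share, the Cyp2e1 class and pooling. Positions are from the GENCODE annotation and promoters from RefSeq.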

Additional observations from a re-analysis of the deposited data

Results flagged for a closer look

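Nuclei that no marker list took were used in no comparison, and in some of them 2 of the genes stood above the adipocyte nuclei of the same library, which is why they are given here. Trhde had 7.52 CPM in the 422 such nuclei of STX4 library 1, from 14 UMIs, against 2.67 CPM in adipocyte nuclei, a ratio of 2.82 (1.51 to 4.84). Cmklr1 had 31.2 CPM in the same nuclei, from 58 UMIs, against 1.79 CPM, a ratio of 17.5 (12.6 to 24.0). In the 2419 ungated nuclei of STX4 library 2 Cmklr1 had 49.6 CPM against 14.9 CPM, a ratio of 3.33 (2.88 to 3.85), and in the 2374 of aging library 2 it had 10.1 CPM against 2.72 CPM, a ratio of 3.71 (1.47 to 12.0). The markers of fibroblasts or progenitors summed to 2097 CPM in the ungated nuclei of STX4 library 1, 880 CPM in those of STX4 library 2 and 599 CPM in those of aging library 2, and macrophage markers to 494, 1317 and 222 CPM. Their part in the result was not tested.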

How the results depend on the processing

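Of 91 recomputed counts of the 7 genes, 82 stayed within 1.5 times the reported count and 9 did not. In STX4 library 1 the count of genes lower with Cyp2e1 went from 1 to 0 with nuclei thinned to 1000 UMIs and to 4 with both libraries pooled, and the count at least 2-fold above other types from 3 to 5 with a lead of 3 markers, which left 1 other type. In STX4 library 2 the stated range of 200 to 2000 UMIs took the higher count from 3 to 1, the lower count from 3 to 0 and the 2-fold count from 4 to 7, with 1 other type left. There the ratios of Slc36a2 (1.19), Cmklr1 (0.796) and Slc2a4 (1.14) turned direction, all with intervals on both sides of 1, in 201 nuclei with Cyp2e1. In aging library 1 the lower count went from 1 to 0 in that range, to 2 with at least 2 Cyp2e1 UMIs and to 2 with the libraries pooled. Except for fewer nuclei and types, the cause was not tested. Of 199 single ratios, 146 stayed inside the reported interval, 50 left it and 3 reversed. That range left no nuclei of STX4 library 1. No paired analysis was possible because each condition has 1 library and no suffix is tied to a sample; for the same reason no replicate could be left out.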
